A study of Mus musculus with 30 samples.

Results

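The effect of losing *Egr-1* from the liver at 6 months of age was described from 4 liver libraries: WT and *Egr-1* KO at H, and WT and KO at L, with 1 library in each. They were chosen by their labels, from 12 libraries of WT and KO mice and 30 libraries in the whole series. H and L stand for the zeitgeber times (ZT, hours after lights on) at which Egr-1 protein in WT liver was highest and lowest, which at 6 months were ZT9 and ZT21. KO mice were made by crossing mice with floxed *Egr-1* alleles to mice that carry Cre under the albumin (*Alb*) promoter, and littermates served as WT. All mice were male and fed chow. The KO line came from strain 129 and had been backcrossed to C57BL/6J. The *Alb* promoter is active in the hepatocyte lineage, and in which liver cells the gene was lost was not tested. Legends of the study mention several animals per group for this RNA-seq, but 1 library per group was analysed here and no source says whether it holds 1 mouse or a pool, so p-values measure only the spread between these libraries.

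Egr-1 is a zinc-finger transcription factor of the immediate-early class. Its gene is switched on rapidly and briefly by growth factors, stress and feeding cues, its protein binds GC-rich sites near the start of target genes, and the corepressors NAB1 and NAB2 restrain it. In the liver it has been studied in regeneration, insulin signalling, lipid storage and daily rhythms. A recurring partner in this study is *Cidea*, which encodes a lipid droplet protein that helps small droplets merge into large ones.

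The 4 libraries held 16418652 to 21748956 counted reads, and the 8 WT and KO libraries of 2 and 12 months held 13747706 to 21116547. Levels are given as CPM (a gene's count relative to the library total in units of 1e6 reads, scaled by TMM factors), and a log2 fold change is KO over WT. The genotype effect at 6 months came from 1 edgeR quasi-likelihood fit to all 12 libraries, with each WT and KO pair as a block, in 14843 genes. With 2 pairs at 6 months, the spread was shared with the 4 pairs of the other ages, and genes were called at an adjusted p under 0.05. Within a pair, WT and KO were compared at the same time of day, and what the pair at H and the pair at L share is also described without a test.

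*Egr1* mRNA (chr18:34859823-34864984 of GRCm38, plus strand) was lower in KO than in WT in both pairs at 6 months. At H, WT held 72.1 CPM and KO 5.50 CPM of *Egr1*, and at L, WT held 25.03 CPM and KO 4.96 CPM. The exact 95% Poisson intervals, which cover counting error only, were 68.3 to 76.1 CPM in WT and 4.57 to 6.56 CPM in KO at H, and 22.6 to 27.6 CPM in WT and 3.96 to 6.14 CPM in KO at L, so that WT and KO did not overlap. The log2 fold change was -3.07 ± 0.97 (SE), with an adjusted p of 0.505 in the edgeR fit of the 12 libraries. EdgeR on the 4 libraries of 6 months alone called *Egr1* (adjusted p = 0.00463), and DESeq2 and limma-voom did not. Within the pairs of other ages the KO library was not always lower: at 2 months at L it held 7.37 CPM against 1.45 CPM in WT, and at 12 months at H it held 6.11 CPM against 5.86 CPM. The 6 libraries of the C57BL/6J time course at 6 months, which come from another table and were normalized separately, ranged from 3.07 to 37.8 CPM. WT at H lay above that range, and both KO libraries and WT at L lay within it. In bulk liver RNA, fewer cells of a type and less RNA per cell cannot be told apart. The source of the reads left in KO was not tested, and which exons Cre removes was not given in the sources used here.

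Few genes passed the test at 6 months. Of 14843 genes, 5 were called (0.0337%), with *Cidea* and *Gm9824* rising and *Foxq1*, *A2ml1* and *Tsc22d2* falling in KO. At an unadjusted p under 0.05, 536 genes were higher in KO (3.61%) and 621 were lower (4.18%). At 2 months and at 12 months 0 genes were called, with 970 and 1063 genes at an unadjusted p under 0.05 in the same edgeR fit. The 3 genes that fell and the 2 that rose did so in both pairs. Without the pair at H, the calls of *A2ml1* (adjusted p = 0.113), *Tsc22d2* (0.117) and *Gm9824* (0.089) were lost, and without the pair at L those of *A2ml1* (0.0998), *Tsc22d2* (0.106), *Gm9824* (0.124) and *Cidea* (0.0998) were lost, all with the same direction in the edgeR fit.

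*Foxq1*, on chr13:31556134-31560976 of GRCm38 (plus strand), encodes a forkhead transcription factor. The WT and KO libraries held 43.9 and 6.61 CPM of *Foxq1* at H and 41.3 and 9.45 CPM at L. The log2 fold change was -2.43 ± 0.18 (SE, adjusted p = 0.0113). Both WT libraries of 6 months stood above the 4 WT libraries of 2 and 12 months, which spanned 4.23 to 14.9 CPM, and above the 6-month time course, which spanned 7.37 to 15.96 CPM. The KO libraries of 6 months lay within the span of the WT of other ages. At 2 months the *Foxq1* log2 fold change was 0.78, and at 12 months it was -0.60. The difference between the effects at 6 and 2 months was itself called (-3.20 ± 0.26, adjusted p = 0.014), and that between 6 and 12 months was not (-1.83 ± 0.26, adjusted p = 0.43).

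*Tsc22d2*, on chr3:58414715-58466783 (plus strand), is a member of the TSC22 domain family. The level of *Tsc22d2* was 67.8 CPM in WT and 23.9 CPM in KO at H, and 53.9 CPM in WT and 22.6 CPM in KO at L. The log2 fold change was -1.38 ± 0.13 (SE, adjusted p = 0.018). The same picture held as for *Foxq1*: the other 4 WT libraries lay between 17.9 and 31.1 CPM, the time course between 14.3 and 21.4 CPM, and the KO libraries of 6 months lay within the span of the other WT. The log2 fold change was -0.08 at 2 months and 0.04 at 12 months.

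*A2ml1*, on chr6:128539821-128581608 (minus strand), encodes a protease inhibitor of the alpha-2-macroglobulin family. At H, WT held 28.6 CPM and KO 5.76 CPM of *A2ml1*, and at L, WT held 18.04 CPM and KO 4.96 CPM. The log2 fold change was -2.10 ± 0.19 (SE, adjusted p = 0.018). Here it was the KO that stood apart from other WT liver. The 4 other WT libraries held 15.1 to 22.5 CPM, the 4 other KO libraries 4.001 to 10.9 CPM, and the time course 15.8 to 33.0 CPM. The effect was of like size at 2 months (-2.11) and was -1.13 at 12 months, and the difference between 6 and 2 months was 0.01.

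*Cidea*, on chr18:67343604-67367785 (plus strand), rose in KO from a low level in WT. The WT and KO libraries held 1.62 and 15.3 CPM of *Cidea* at H and 1.62 and 88.6 CPM at L. The log2 fold change was 4.60 ± 0.51 (SE, adjusted p = 0.0459). The rise was several-fold in the pair at H and far larger in the pair at L. The 6 time-course libraries of 6 months held 0 to 0.322 CPM of *Cidea*. At 2 months WT libraries held 0 and 0.0693 CPM, and KO libraries 0.914 and 0.191 CPM. At 12 months both genotypes expressed it, at 85.5 and 46.5 CPM in WT and 128 and 87.3 CPM in KO, with a log2 fold change of 0.74. The KO library of 6 months at L (88.6 CPM) therefore lay within the range of the 12-month libraries. The 6-month effect exceeded the 12-month effect by 3.86 ± 0.62 (adjusted p = 0.52), and its difference from the 2-month effect was 0.56 ± 5.93 (adjusted p = 1), where WT of 2 months held 0 and 1 read.

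The other gene that rose, *Gm9824*, was named after its values were seen. It is a processed pseudogene on chr10:29030128-29030688 (plus strand). The level of *Gm9824* was 29.03 CPM in WT and 74.3 CPM in KO at H, and 19.3 CPM in WT and 49.1 CPM in KO at L. Its log2 fold change was 1.35 ± 0.12 (SE), with an adjusted p of 0.018. In the other 4 WT libraries it held 19.0 to 43.4 CPM and in the other 4 KO libraries 13.3 to 52.1 CPM, so the KO library at H stood above all of these. The log2 fold change was -0.67 at 2 months and 0.22 at 12 months. The effect at 6 months exceeded that at 2 months by 2.02 ± 0.17 (adjusted p = 0.014), the only other difference between ages that was called (2 genes, 0.0135%), and that at 12 months by 1.13 ± 0.16 (adjusted p = 0.43).

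*Gm9824* is a near copy of *Pebp1*, which encodes an inhibitor of Raf kinase signalling, so reads can be hard to assign between them. Over its 561 bases it differed from the *Pebp1* transcript at 6 positions (98.9% identity), and the longest run without a difference was 213 bases. Positions are counted from 1 at the 5′ end of *Gm9824*, and a token such as A214G gives the *Gm9824* base, the position and the *Pebp1* base. The stretches of 25 bases around A214G, C285T and A514G show how little separates them, with the differing base in capitals, read from the GENCODE transcripts of GRCm38.
Gm9824 around A214G: ctcacagaccccAatgctcccagca
Pebp1 around A214G: ctcacagaccccGatgctcccagca
Gm9824 around C285T: catgaagggtaaCgacattagcagt
Pebp1 around C285T: catgaagggtaaTgacattagcagt
Gm9824 around A514G: tgctaccaagccAagtgggatgact
Pebp1 around A514G: tgctaccaagccGagtgggatgact
Of the stretches of 50 bases in *Gm9824*, 57.6% occur in another annotated transcript. *Pebp1* itself held 260 CPM in WT and 239 CPM in KO at H, and 244 and 272 CPM at L (log2 fold change 0.02, adjusted p = 0.993). *Gm10819*, the transcript with which *Gm9824* shares most of them, held 5.52 and 12.9 CPM at H and 5.93 and 10.2 CPM at L (log2 fold change 1.00, adjusted p = 0.408). The *Gm9824* value is therefore uncertain as a measure of its own locus, and the part of *Pebp1* reads in it was not tested.

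**Figure D1:**
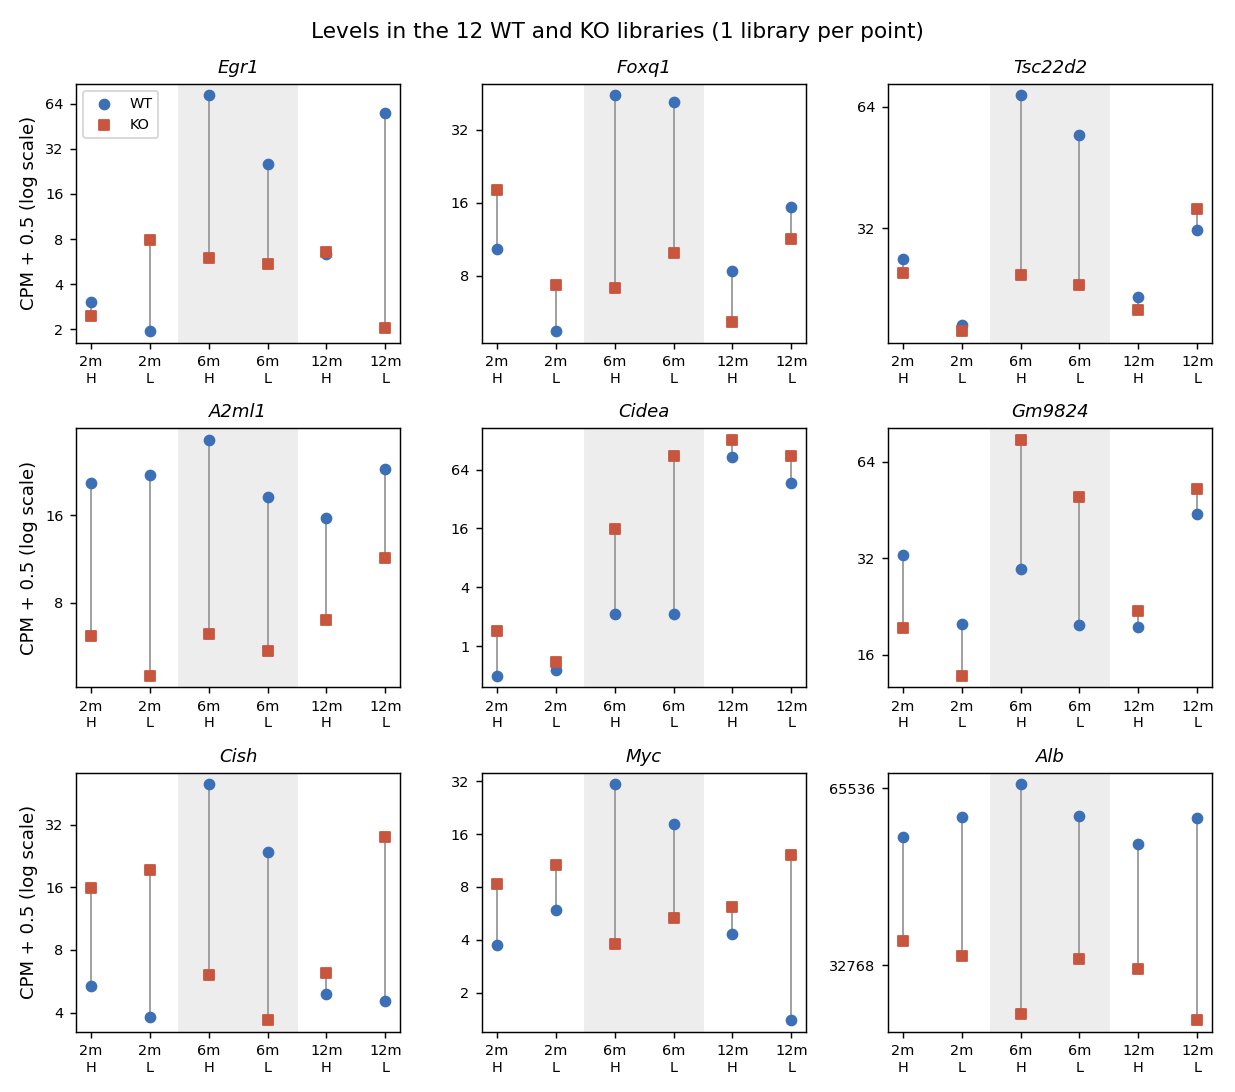
Levels in CPM + 0.5 on a log scale of selected genes in the 12 WT and KO libraries, by age and by H or L, with 1 library per point. At 6 months *Foxq1* in WT (43.9 and 41.3 CPM) stood above WT at the other ages, whereas *A2ml1* in KO (5.76 and 4.96 CPM) stood below WT at every age.

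Beyond the called genes, 10 more had an adjusted p under 0.1, which makes 15 in all. Of those lower in KO, *Inhba*, which encodes an activin subunit, held 16.5 and 4.30 CPM in WT and KO at H and 10.3 and 3.60 CPM at L (-1.74, adjusted p = 0.053). *Arid5b*, a chromatin regulator linked to lipid metabolism, held 77.4 and 27.2 CPM at H and 54.9 and 16.2 CPM at L (-1.63, adjusted p = 0.0868). *Rdh16f2*, of the retinol dehydrogenase family, held 122 and 41.0 CPM at H and 104 and 48.3 CPM at L (-1.34, adjusted p = 0.0828). WT exceeded KO by over 2-fold in both pairs in each of these genes. *Ccl9*, a chemokine gene, was also lower (-1.19, adjusted p = 0.0943), as were *Zpr1* (-0.79) and the predicted genes *Gm33543* (-2.41) and *Gm31583* (-2.07). On the higher side stood *Cidec* (1.54), the immunoglobulin gene *Ighm* (1.41) and *Sema5b* (1.31). *Inhba*, *Zpr1*, *Sema5b* and the predicted genes were named after their values were seen.

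The changes shared by both pairs were a small fraction of those in either pair. Of the 12659 genes that averaged 1 CPM or more in the 4 libraries, 329 were past 2-fold at H and 411 at L on the log2(CPM + 0.5) scale. In both pairs, 22 were past 2-fold higher in KO (0.174%) and 43 lower (0.34%), while 29 were past 2-fold in opposite directions. Across genes, the log2 ratios of the 2 pairs had a Pearson r of 0.134 at 6 months, against 0.068 in the younger and 0.213 in the older pairs. Genes are not independent replicates, and the 2 pairs shared no library. Over all 14843 genes, 24.7% were higher in KO in both pairs and 25.4% lower, whatever the size.

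**Figure D2:**
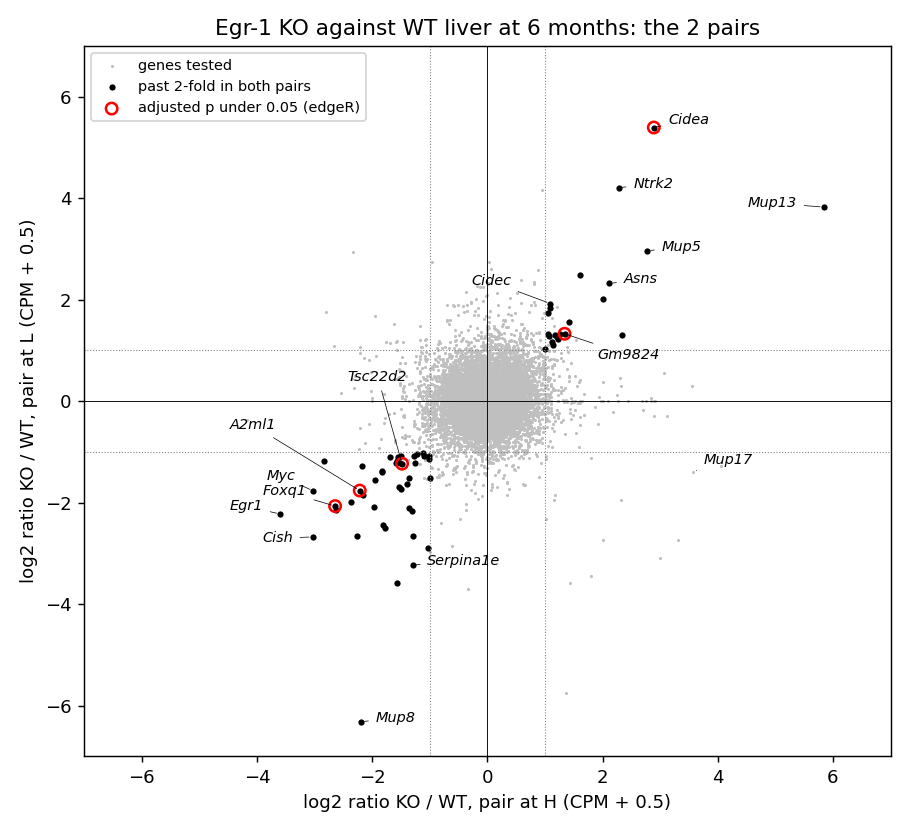
The log2 ratio of KO over WT (CPM + 0.5) in the pair at H on the horizontal axis and in the pair at L on the vertical axis, with 1 point per gene. The 22 genes past 2-fold higher and 43 past 2-fold lower in both pairs lie in the upper right and lower left corners, and most genes past 2-fold in 1 pair lie near 0 in the other.

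*Cish*, *Plk3*, *Trib1* and *Myc* were among the genes past 2-fold lower in both pairs. *Cish*, a feedback inhibitor of growth hormone and cytokine signalling, had the largest shared difference on the lower side. At H, WT held 49.3 CPM and KO 5.59 CPM of *Cish*, and at L, WT held 23.1 CPM and KO 3.19 CPM. Its log2 fold change was -3.01 ± 0.46 (SE), with an adjusted p of 0.153. At 2 months its log2 fold change was 2.05 and at 12 months 1.60, and the differences from 6 months were -5.06 (adjusted p = 0.156) and -4.62 (adjusted p = 0.43). *Plk3*, a stress-responsive kinase gene, held 116 and 44.2 CPM at H and 62.1 and 19.6 CPM at L (-1.53, adjusted p = 0.219). *Trib1*, a pseudokinase gene that affects hepatic lipogenesis and was named after its values were seen, held 179 and 39.8 CPM at H and 133 and 36.5 CPM at L (-2.02, adjusted p = 0.242). *Myc*, the proto-oncogene, held 30.2 and 3.28 CPM at H and 17.7 and 4.84 CPM at L (-2.54 ± 0.56, adjusted p = 0.331). These 4 genes were taken as past 2-fold lower in both pairs, so a gap at both times follows from that choice. The edgeR fit of the 12 libraries called 0 of the 4. DESeq2 called *Cish* (adjusted p = 0.00442) and *Plk3* (5.43e-05), and edgeR on the 4 libraries of 6 months alone called all 4, with adjusted p from 0.00131 for *Cish* to 0.012 for *Myc*.

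*Mt1*, a metal-binding metallothionein, held 117 CPM in WT and 18.6 CPM in KO at H and 33.5 and 7.15 CPM at L (adjusted p = 0.329). It was lower in KO at each time, with WT higher at H than at L. On the higher side, *Ntrk2*, a neurotrophin receptor gene, held 2.06 and 11.9 CPM at H and 1.31 and 32.9 CPM at L (3.54, adjusted p = 0.188). *Asns*, the asparagine synthetase gene, held 2.82 and 13.9 CPM at H and 0.749 and 5.73 CPM at L (2.53, adjusted p = 0.287). Both *Ntrk2* and *Asns* were also higher in KO in each pair of 2 and 12 months. *Nanp*, a sialic acid phosphatase gene, held 0.162 and 2.17 CPM at H and 0.375 and 3.01 CPM at L. Its value is uncertain, because 56.1% of its stretches of 50 bases also occur in other genes, mostly *Gm6741*, a pseudogene named after its values were seen, which was lower in KO (4.44 and 0.887 CPM at H, 2.81 and 0.768 CPM at L).

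The genes past 2-fold in both pairs were then set beside WT liver of 2 and 12 months. Times of day differed too: H and L were ZT9 and ZT21 at 6 months and ZT13 and ZT17 at 2 months. At 12 months L was ZT21 and H was another time than at 6 months. Age and time of day therefore cannot be told apart in these counts. The 6-month values chose these genes, so the counts are a description. Of the 43 lower genes, both WT libraries of 6 months lay above all 4 other WT libraries in 18 (41.9%), and both KO libraries lay below all 4 in 14 (32.6%). Among all genes with at least 1 CPM, WT of 6 months lay above the other WT in 8.44% and below in 7.07%, and KO of 6 months lay above them in 6.48% and below in 6.46%. In 3 of the 43 genes both held, and in 14 neither.

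*Foxq1*, *Tsc22d2*, *Cish*, *Arid5b*, *Plk3*, *Trib1*, *Myc* and *Mt1* were among the genes in which WT of 6 months stood high. For *Trib1* the other WT libraries held 16.3 to 50.9 CPM, and the time course of 6 months 23.4 to 31.0 CPM. For *Myc* they held 0.897 to 5.40 CPM and the time course 1.08 to 4.82 CPM. In both genes the KO libraries of 6 months lay within the span of the other WT libraries, and the WT libraries of 6 months lay above that span and above the time course. The genes in which KO of 6 months stood low included *A2ml1*, *Ccl9*, *Inhba*, *Rdh16f2*, *Igfbp2* and *Gm6741*. Of the 22 higher genes, KO lay above the other WT in 8 (36.4%), among them *Asns*, *Nanp* and *Gm9824*, and WT lay below in 3 (13.6%). What set the WT libraries of 6 months apart in the first group was not tested.

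**Figure D3:**
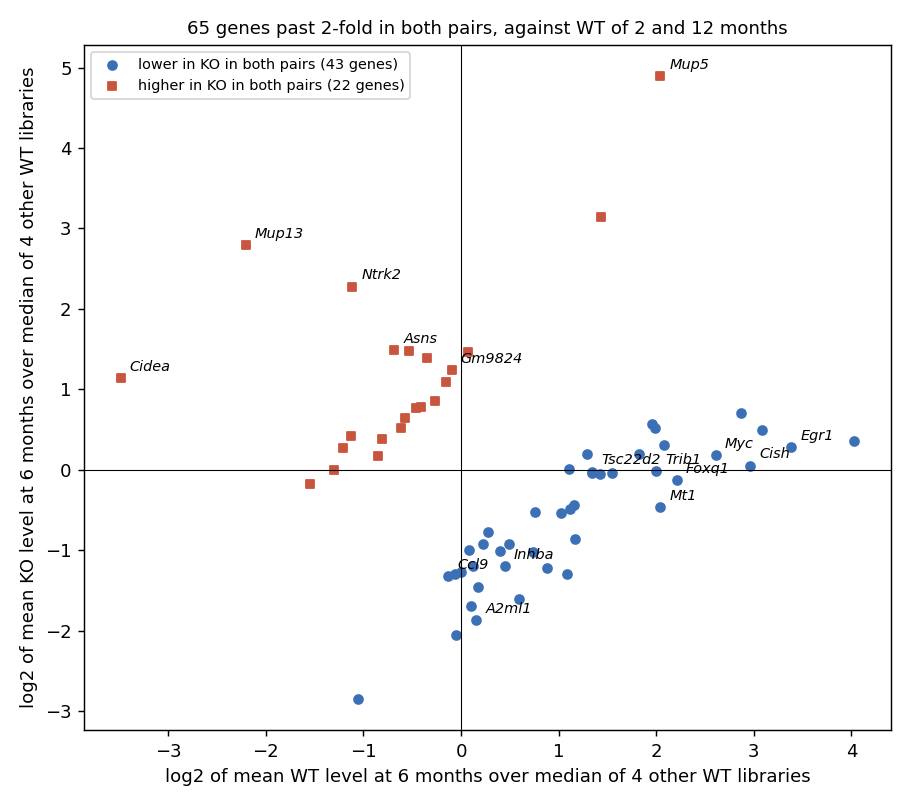
For the 65 genes past 2-fold in both pairs, the log2 of the mean WT level at 6 months (horizontal) and of the mean KO level at 6 months (vertical), each over the median of the 4 WT libraries of 2 and 12 months. Lower genes such as *Foxq1* and *Trib1* lie to the right near the horizontal axis line, since WT was high, and *A2ml1* lies below it, since KO was low.

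The direction of the genes past 2-fold at 6 months was also read in the pairs of the other ages. Of the 22 higher genes, 10 were higher in KO in both pairs at 2 months, 5 lower and 7 split, and at 12 months 15 were higher, 2 lower and 5 split. Of the 43 lower genes, 19 were lower in both pairs at 2 months, 9 higher and 15 split, and at 12 months 19 were lower, 7 higher and 17 split. The share of all genes with the same direction in both pairs was not counted at 2 or 12 months. Whether these counts exceed it was therefore not tested. No gene was called different between 6 and 12 months (0%, 0 of 14843). For that contrast 493 genes had an unadjusted p under 0.05 in edgeR, DESeq2 called 5 and limma-voom 0.

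Among the Egr-1 family and its corepressors, 3 of 4 tested genes were lower in KO in both pairs. *Egr2* held 3.47 and 0.177 CPM at H and 0 and 0.0591 CPM at L (adjusted p = 0.523), so only WT at H stood clear of the limit of detection. The WT and KO libraries held 14.3 and 10.4 CPM of *Nab2* at H and 13.1 and 10.9 CPM at L. *Nab2*, itself a known target of Egr-1, had a log2 fold change of -0.36 (adjusted p = 0.641). The level of *Nab1* was 78.2 CPM in WT and 71.4 CPM in KO at H, and 66.7 CPM in WT and 64.01 CPM in KO at L. *Nab1* had a log2 fold change of -0.10 (adjusted p = 0.936). Of the 4 genes, *Egr1*, *Egr2* and *Nab2* had an unadjusted p under 0.05 in edgeR. They were not the same 3 as those lower in both pairs, since *Egr2* was not lower at L.

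The classical Egr-1 sites, GCGTGGGCG and GCGGGGGCG, were searched on both strands from 250 bases before to 50 bases after the gene start in the RefSeq promoters of GRCm38.p6. The search asked whether these letters lay near the genes that differed. Of 32851 promoters, 1139 (3.47%) held a match, as did 800 of the 10819 tested genes with an entry (7.39%). Among genes past 2-fold in both pairs, 0 of the 24 lower and 0 of the 12 higher genes with an entry held one. These are letters in 1 window only. The promoter of *Nab1* (chr1:52500399-52500698, minus strand), shown because it held 3 matches, and that of *Slc13a3* (chr2:165473148-165473447, minus strand), picked from the named genes for its match, are given with the matches in capitals. Of the 77 named genes with an entry, 4 held a match (5.19%). That of *A2ml1* (chr6:128581557-128581856, minus strand), the only called gene with an entry, held none. *Cidea*, *Foxq1*, *Tsc22d2* and *Gm9824* had no entry and were not searched. For *Cidea*, the study predicted GC-rich Egr-1 sites in the promoter. It reported Egr-1 binding there by ChIP in hepatocytes overexpressing Egr-1, and lower activity of a *Cidea* reporter with Egr-1.
Nab1: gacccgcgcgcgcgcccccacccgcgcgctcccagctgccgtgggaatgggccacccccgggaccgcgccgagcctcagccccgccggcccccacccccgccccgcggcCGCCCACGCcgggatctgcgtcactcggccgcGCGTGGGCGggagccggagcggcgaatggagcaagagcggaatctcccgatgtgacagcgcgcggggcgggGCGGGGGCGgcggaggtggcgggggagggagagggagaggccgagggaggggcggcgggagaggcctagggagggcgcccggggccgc
Slc13a3: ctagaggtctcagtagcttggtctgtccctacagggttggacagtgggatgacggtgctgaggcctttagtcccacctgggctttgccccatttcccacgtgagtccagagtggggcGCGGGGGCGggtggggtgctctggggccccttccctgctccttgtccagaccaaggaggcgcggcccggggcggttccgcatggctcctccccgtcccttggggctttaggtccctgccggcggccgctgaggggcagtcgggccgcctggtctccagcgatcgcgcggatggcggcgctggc
A2ml1: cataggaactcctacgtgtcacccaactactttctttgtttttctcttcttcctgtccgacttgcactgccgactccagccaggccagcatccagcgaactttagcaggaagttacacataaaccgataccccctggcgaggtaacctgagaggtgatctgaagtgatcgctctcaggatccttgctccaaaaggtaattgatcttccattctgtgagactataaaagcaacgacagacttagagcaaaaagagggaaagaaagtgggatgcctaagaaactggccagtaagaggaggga

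Immediate-early genes as a group gave mixed directions. Of 25 tested, 2 were higher in KO in both pairs, 6 lower and 17 split, and the lower share was near the 25.4% of all genes. Their median log2 fold change was -0.34 at 6 months, against -0.0098 over all genes tested. At 2 and 12 months the medians were 0.52 and 0.17. Besides *Myc*, *Jun* (29.8 and 15.5 CPM at H, 24.7 and 19.3 CPM at L) and *Gadd45g* (25.8 and 14.0 CPM at H, 34.5 and 16.9 CPM at L) were lower. *Atf3*, a stress-responsive factor of the same class, was lower at H (10.8 and 1.29 CPM) and higher at L (1.94 and 4.67 CPM), so the pairs differed in direction.

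Lipid droplet genes were split, with *Cidea* and *Cidec* among the higher. Of 19 droplet proteins and lipases tested, 7 were higher in KO in both pairs (24.7% over all genes), 3 lower (25.4%) and 9 split. Their median log2 fold change was 0.10, and edgeR called 1, *Cidea*. DESeq2 also called *Cidec* (adjusted p = 4.71e-06) and *Fitm1* (0.0125). *Cidec*, which encodes another droplet fusion protein, held 13.6 and 29.7 CPM at H and 12.1 and 47.3 CPM at L (1.54 ± 0.22, adjusted p = 0.0943). In WT of the other ages it held 4.85 and 4.78 CPM at 2 months and 52.5 and 58.5 CPM at 12 months. *Fitm1*, involved in droplet formation, held 139 and 211 CPM at H and 116 and 256 CPM at L (0.87, adjusted p = 0.331). *Hsd17b13*, another droplet protein, was lower, with 287 and 171 CPM at H and 271 and 223 CPM at L (-0.51).

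Genes of fatty acid and of triglyceride synthesis gave different counts. Of 18 genes of de novo lipogenesis, 2 were higher in both pairs, 2 lower and 14 split. The lipogenic regulator *Mlxipl* was lower (114 and 88.0 CPM at H, 152 and 111 CPM at L), and malic enzyme *Me1* higher (213 and 241 CPM at H, 251 and 479 CPM at L). In 9 of the 18 genes both WT libraries of 6 months lay below the other 4 WT libraries, against 7.07% of all genes averaging 1 CPM or more. Of 11 genes of triglyceride synthesis, 6 were higher in both pairs (24.7% over all genes) and 2 lower (25.4%), with a median log2 fold change of 0.21. Among them *Mogat1*, which makes diacylglycerol, held 1.30 and 2.48 CPM at H and 1.12 and 5.02 CPM at L (1.54, adjusted p = 0.408), and the phosphatase gene *Lpin1* held 118 and 89.9 CPM at H and 169 and 58.0 CPM at L (-0.97). The fatty acid carrier gene *Cd36* was even at H (75.6 and 72.8 CPM) and higher in KO at L (48.3 and 149 CPM), with a log2 fold change of 0.78 (adjusted p = 0.70).

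Genes for lipid export in lipoproteins were more often lower. Of 18, 8 were lower in KO in both pairs (25.4% over all genes), 2 higher (24.7%) and 8 split. In edgeR, 5 had an unadjusted p under 0.05 on the lower side (4.18% over all genes) against 1 on the higher (3.61%). The median log2 fold change of the list was -0.13 at 6 months, -0.18 at 2 months and -0.24 at 12 months. At H, WT held 10492 CPM and KO 5284 CPM of *Apoa1*, and at L, WT held 8177 CPM and KO 5166 CPM. *Apoa1*, the main protein of HDL, had a log2 fold change of -0.83 (adjusted p = 0.312). *Apob*, the backbone of VLDL, held 3321 and 2289 CPM at H and 3088 and 2059 CPM at L (-0.56, adjusted p = 0.356), and *Apom*, a carrier of sphingosine phosphate, 194 and 119 CPM at H and 216 and 89.4 CPM at L (-0.99, adjusted p = 0.203). *Apoa4*, linked to triglyceride secretion, went the other way, with 55.1 and 94.8 CPM at H and 82.8 and 186 CPM at L (0.98, adjusted p = 0.212). None of the 18 was called by edgeR in the fit of the 12 libraries or by limma-voom, and DESeq2 called these 4, with adjusted p of 0.00034 for *Apom*, 0.00074 for *Apoa4*, 0.00345 for *Apoa1* and 0.0182 for *Apob*. *Apoa1*, *Apob* and *Apom* were also lower in KO in each pair of 2 and 12 months. *Apoa4* was higher in KO in all of those pairs but that of 2 months at H.

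Albumin and some other secreted hepatocyte proteins were lower in KO. The WT and KO libraries held 66552 and 27086 CPM of *Alb* at H and 58849 and 33560.3 CPM at L. *Alb*, whose promoter drives the Cre transgene, had a log2 fold change of -1.05 ± 0.18 (adjusted p = 0.188) and was lower in KO in all 6 pairs of the 3 ages. The 4 other WT libraries held 52680 to 58470 CPM of *Alb*, and the 4 other KO libraries 26460 to 35990 CPM. Of 12 hepatocyte markers tested, 7 were lower in KO in both pairs, 2 higher and 3 split, and their summed level went from 111320 CPM in WT to 63701 CPM in KO at H and from 101130 to 75254 CPM at L. Without *Alb* the sum of the other 11 was 44771 and 36615 CPM at H and 42284 and 41693 CPM at L, so *Alb* made up most of the difference at H and nearly all of it at L. Of 23 acute-phase genes, 6 were lower in both pairs, 3 higher and 14 split. The lower share was near the 25.4% of all genes. In edgeR, 4 of the 23 had an unadjusted p under 0.05 on the lower side and 3 on the higher. Fibrinogen beta (*Fgb*) held 3389 and 2367 CPM at H and 2992 and 2016 CPM at L (-0.54), and alpha-1-antitrypsin (*Serpina1a*) was also lower (-0.53). Other genes share 67.4% of the stretches of 50 bases in *Serpina1a*, so its value is uncertain. Of 16 hepatokines, 7 were lower in both pairs and 4 higher. *Igfbp2*, which binds insulin-like growth factors, held 469 and 234 CPM at H and 629 and 219 CPM at L (-1.26, adjusted p = 0.332), and *Igfbp1* held 34.7 and 17.2 CPM at H and 64.5 and 7.74 CPM at L (-1.98, adjusted p = 0.312).

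Growth hormone targets and sex-biased genes included several lower in KO besides *Cish*. Of 23 tested, 11 were lower in both pairs (25.4% over all genes), 5 higher (24.7%) and 7 split. Their median log2 fold change was -0.25, which was 0.07 in the pairs of 2 months and -0.08 in those of 12 months. *Socs2*, another feedback inhibitor of growth hormone signalling, held 25.6 and 14.0 CPM at H and 19.6 and 6.67 CPM at L (-1.19, adjusted p = 0.45). *Serpina1e*, a male-biased serpin gene, held 4371 and 1784 CPM at H and 4856 and 517 CPM at L (-2.26, adjusted p = 0.392), although 35.6% of its stretches of 50 bases are shared with other genes.

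The major urinary protein genes, which encode male pheromone carriers and are near-identical copies of each other, split in direction. Of 22, 5 were higher in both pairs, 7 lower and 10 split. *Mup13* held 4.44 and 282 CPM at H and 6.49 and 98.5 CPM at L, and *Mup5* 2.17 and 17.7 CPM at H and 1.498 and 15.1 CPM at L. *Mup8* held 264 and 57.5 CPM at H and 563 and 6.55 CPM at L, and was thus lower in KO. *Mup17* differed in direction between the pairs (874 and 10371 CPM at H, 4645 and 1774 CPM at L), and *Mup19* was higher in both (506 and 1545 CPM at H, 43.6 and 247 CPM at L). The share of 50-base stretches held in common with other genes was 17.1% in *Mup5*, 78.1% in *Mup17*, 86.9% in *Mup8*, 92.4% in *Mup13* and 100% in *Mup19*, so that these values are uncertain, least so in *Mup5*.

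Interferon-induced and matrix genes were counted higher in KO more often than genes at large. Of 36 interferon-induced genes, 21 were higher in both pairs, 2 lower and 13 split, and 11 had an unadjusted p under 0.05 on the higher side and 0 on the lower. Their median log2 fold change was 0.33, and in the pairs of 2 and 12 months it was 0.22 and 0.62. *Psmb9*, an immunoproteasome subunit, held 23.9 and 36.5 CPM at H and 17.7 and 27.0 CPM at L (0.61, adjusted p = 0.293), and *Ifi27l2b* and *Apol9a* had log2 fold changes of 1.42 and 0.76. Of 26 extracellular matrix genes, 18 were higher in both pairs and 4 lower, with medians of 0.32, 0.30 and 0.38 at 6, 2 and 12 months. Their summed level went the other way, with 1584 CPM in WT and 1514 CPM in KO at H and 2008 and 1735 CPM at L. *Col6a1*, a collagen VI chain, held 8.50 and 14.1 CPM at H and 12.1 and 19.7 CPM at L (0.72, adjusted p = 0.233). Neither edgeR in the fit of the 12 libraries nor limma-voom called a gene of either list, and DESeq2 called *Ifi27l2b* alone among them (adjusted p = 0.018).

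**Figure D4:**
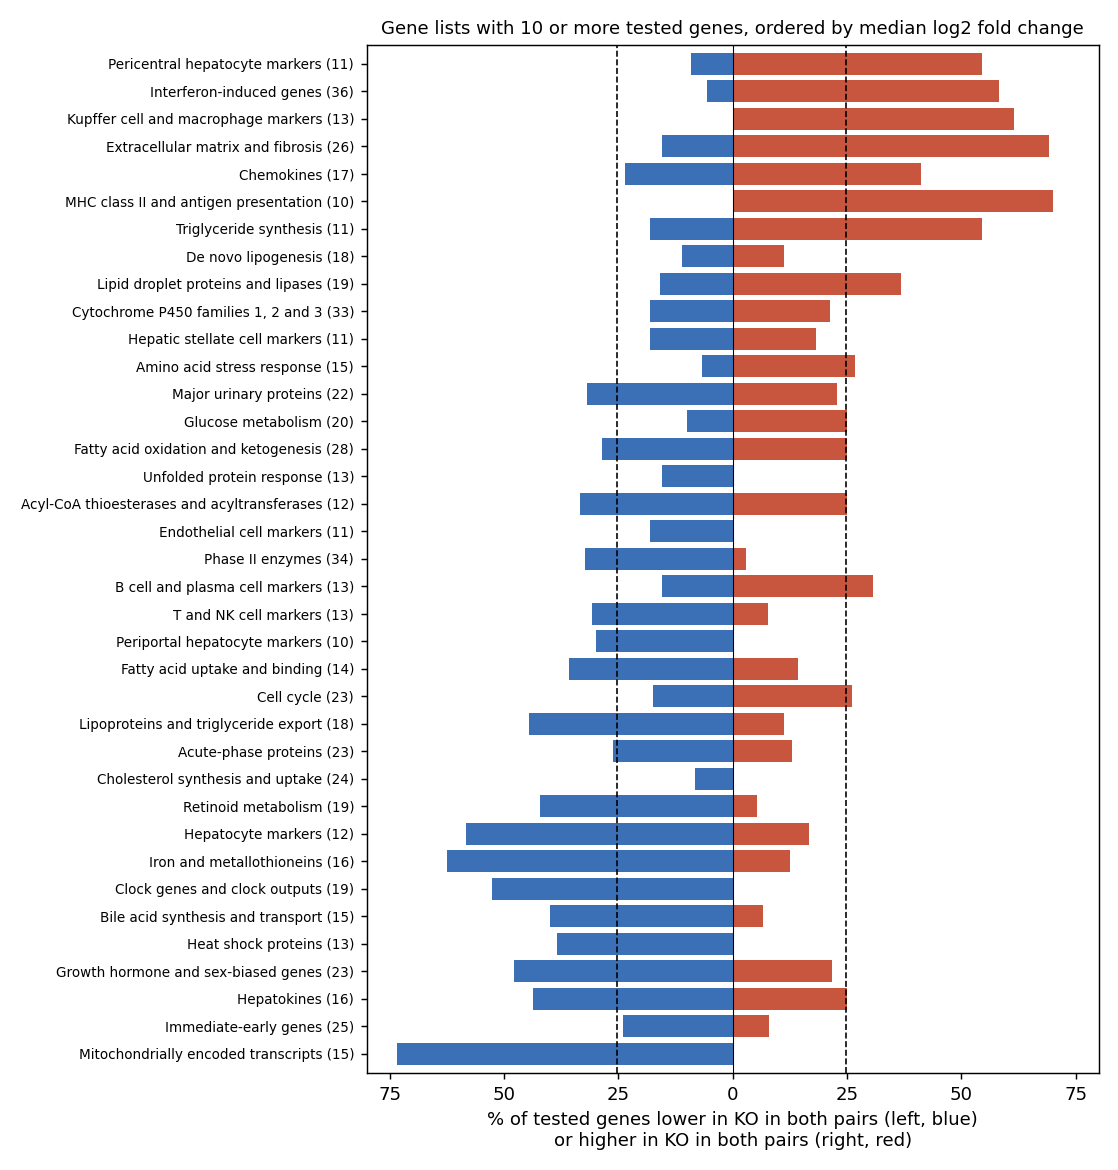
Gene lists with at least 10 tested genes (the number tested in parentheses), ordered by median log2 fold change at 6 months, with bars for the percentage of tested genes lower (left) and higher (right) in KO in both pairs. Dashed lines mark the share over all genes, 25.4% lower and 24.7% higher, and the bars for interferon-induced and matrix genes reach well past the right one.

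Markers of some other liver cells also differed between WT and KO. The summed level of the 13 Kupffer cell and macrophage markers was 745 CPM in WT and 1094 CPM in KO at H and 749 and 811 CPM at L. In both pairs, 8 of 13 were higher (24.7% over all genes) and 0 lower (25.4%). *Cd68* of that list held 9.10 and 14.9 CPM at H and 9.30 and 12.2 CPM at L. The 14 B cell and plasma cell markers summed to 57.4 and 81.7 CPM at H and 40.8 and 71.5 CPM at L, of which *Ighm* made up 18.1 and 38.0 CPM at H and 12.7 and 43.5 CPM at L. Without *Ighm* the sum was 39.3 and 43.7 CPM at H and 28.1 and 27.99 CPM at L, and of 13 tested 4 were higher in both pairs, 2 lower and 7 split. Endothelial markers (359 and 382 CPM at H, 372 and 317 CPM at L) and T and NK cell markers (10.4 and 11.4 CPM at H, 7.93 and 6.50 CPM at L) did not keep 1 direction. The sum of the stellate cell markers went from 496 to 552 CPM at H and from 585 to 624 CPM at L. Marker by marker they did not keep 1 direction: of 11 tested, 2 were higher in both pairs, 2 lower and 7 split (median log2 fold change 0.05). The part of these cells in the interferon and matrix genes was not tested.

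Among cholangiocyte markers, 3 of 6 were higher in both pairs and 2 lower. *Sox9*, a progenitor and bile duct factor, held 12.2 and 1.29 CPM at H and 13.2 and 5.55 CPM at L (-2.14, adjusted p = 0.312). The bile duct keratins *Krt7* (3.79 and 4.83 CPM at H, 4.74 and 10.04 CPM at L) and *Krt19* (4.12 and 5.63 CPM at H, 4.68 and 16.3 CPM at L) were higher in KO. Of 11 pericentral hepatocyte markers, 6 were higher in both pairs and 1 lower, among them *Oat* (0.64) and *Glul* (0.37). They summed to 8499 and 9486 CPM at H and 8512 and 9905 CPM at L. Of 10 periportal markers 0 were higher and 3 lower, among them *Cyp2f2* (-0.44). That lower share was near the 25.4% of all genes, and the periportal sum was 8120 and 8134 CPM at H and 9665 and 9009 CPM at L. Erythroid markers summed to 1523 and 1851 CPM at H and 1015 and 800 CPM at L.

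Retinoid and metal-handling genes were lower more often than higher. Of 19 retinoid genes, 8 were lower in both pairs and 1 higher. Besides *Rdh16f2*, *Cyp26b1*, which degrades retinoic acid, held 11.3 and 3.15 CPM at H and 8.49 and 3.66 CPM at L (-1.54). Of 16 genes of iron handling and metallothioneins, 10 were lower in both pairs and 2 higher, among them the metal importer *Slc39a14* (131 and 94.3 CPM at H, 141 and 104 CPM at L). Of 34 phase II enzymes 11 were lower and 1 higher, and of 15 genes of bile acid synthesis and transport 6 were lower and 1 higher. Over all genes, 25.4% were lower in both pairs and 24.7% higher. *Slco1a4*, a hepatic anion importer, held 31.7 and 8.82 CPM at H and 22.7 and 16.7 CPM at L, and *Nr0b2*, the bile acid sensor target SHP, was higher (24.05 and 48.6 CPM at H, 39.7 and 53.6 CPM at L).

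Clock genes and mitochondrial transcripts were lower more often than higher, without a call. Among all genes tested, 25.4% were lower in both pairs and 24.7% higher. Of 19 clock genes and outputs 10 were lower in both pairs, 0 higher and 9 split, and 0 had an unadjusted p under 0.05 in edgeR. Of the 15 mitochondrially encoded transcripts, 11 were lower in both pairs. They made up 6.63% of counts in WT and 4.72% in KO at H, and 4.15% and 3.96% at L, and the 10 most abundant genes took 18.1% and 13.9% at H and 16.4% and 14.6% at L.

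The study also followed genes of amino acid transport in its KO, which it chose on these samples, so their direction is not independent evidence. Of the 5, 4 were higher in both pairs, and *Ggt1* had 0 reads in both libraries at L. The level of *Slc13a3* was 7.04 CPM in WT and 14.3 CPM in KO at H, and 10.6 CPM in WT and 11.8 CPM in KO at L. *Slc13a3*, a dicarboxylate transporter, had a log2 fold change of 0.59 (adjusted p = 0.591), and *Lpcat4* held 0.812 and 2.22 CPM at H and 0.999 and 1.89 CPM at L (1.18, adjusted p = 0.578). *Ggt1* and *Slc6a19* had 0 reads in both WT libraries, 0.931 and 0.709 CPM in KO at H, and 0 and 0.0591 CPM in KO at L, so no fold change is given. *Kcnj10* held 0.812 and 1.69 CPM at H and 0.936 and 1.06 CPM at L. The adropin gene *Enho* was lower at L (19.1 and 5.08 CPM) and near even at H (17.9 and 15.4 CPM), and *Cyp2u1* and *Smim22* differed in direction between the pairs.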

How the data were processed

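The data were liver poly(A) RNA-seq counts. Per the labels, reads were trimmed with fastp, aligned to mm10 with HISAT2 and counted with featureCounts, and the authors deposited whole-number counts of reads per gene without normalization. The annotation behind the counts was not given in the sources used here, and of the 55471 genes 55230 matched GENCODE locations of GRCm38. Total counts were 16418652 to 21748956 in the 4 libraries of 6 months and 13747706 to 21116547 in the 8 others.

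The members and gene lists were chosen with earlier results of these data known. The genotype effect was tested with edgeR 4.0.16 (R 4.3.3, limma 3.58.1): TMM factors, filterByExpr (14843 of 25528 genes with a count, 99.93% of reads), 1 block for each of the 6 WT and KO pairs, 1 genotype term per age (3 residual degrees of freedom), quasi-likelihood F-tests and Benjamini-Hochberg adjustment. Strand use in the counting was not given, so overlapping genes may share reads. H or L is the pairing: both libraries of a pair have the same age and ZT. Genes past 2-fold in both pairs were taken from CPM + 0.5 among genes averaging 1 CPM or more in the 4 libraries, with no test. Lists are described by counts and medians. Of 716 genes in 44 lists, 711 were in the table. Unless stated, named genes were the called genes other than predicted models, the genes the study names for its KO, up to 5 with the smallest p in each contrast between ages, up to 3 of each list by p, and up to 6 in each direction with the largest ratio in both pairs. Sequences came from GENCODE transcripts of GRCm38 and RefSeq promoters of GRCm38.p6. Alternatives covered normalization, filters, the samples fitted, the block, DESeq2 1.42.0 and limma-voom. The model was tested on simulated data. In the time course of the same age, only the span of the 6 libraries was used.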

Additional observations from a re-analysis of the deposited data

Results flagged for a closer look

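The effect of genotype on *Foxq1* and *Gm9824* differed between ages, by the edgeR test of the difference itself. For *Foxq1*, the log2 fold change of KO over WT was -2.43 at 6 months and 0.78 at 2 months, a difference of -3.20 ± 0.26 (SE, adjusted p = 0.014), with KO lower in both pairs of 6 months and higher in both pairs of 2 months. For *Gm9824* it was 1.35 at 6 months and -0.67 at 2 months, a difference of 2.02 ± 0.17 (SE, adjusted p = 0.014), with KO higher in both pairs of 6 months and lower in both pairs of 2 months. *Gm9824* shares most of its sequence with *Pebp1*. The times of day differed between the ages (ZT9 and ZT21 at 6 months, ZT13 and ZT17 at 2 months), so age and time of day cannot be told apart.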

How the results depend on the processing

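The number of calls moved with several settings. The 5 calls became 229 with no filter on low counts, 51 with DESeq2, 8 with limma-voom, 9 with a robust prior, 29 with the 4 libraries of 6 months alone, 13 with the libraries of 6 and 12 months, 39 without the pairs of 2 months at L and 12 months at H, and 0 with no replicate block, where 1099 genes had an unadjusted p under 0.05 in edgeR. Leaving out 1 pair of 6 months gave 3 (without L) to 7 (without H) calls, with the spread of the lone pair taken from the other ages. The 2 differences between 6 and 2 months became 79 with no filter, 13 with DESeq2, 4 with the libraries of 2 and 6 months, 20 without the 2 pairs, 0 with no replicate block (595 at an unadjusted p under 0.05), and 0 to 1 without 1 pair. The 0 differences between 6 and 12 months became 56 with no filter, 5 with DESeq2, 26 without the 2 pairs and 0 to 5 without 1 pair. The 22 genes past 2-fold higher became 41 with a pseudocount of 0.1, 14 with 1, and 12 with a mean of at least 5 CPM. The cause of these differences was not tested. *Foxq1* was called in 13 of 14 alternatives, *A2ml1*, *Tsc22d2* and *Gm9824* in 11 and *Cidea* in 10. With no replicate block their adjusted p was 0.322 for *Foxq1*, 0.108 for *A2ml1*, 0.305 for *Tsc22d2*, 0.576 for *Gm9824* and 0.178 for *Cidea*. *Cidea* also had an adjusted p of 0.0629 with the libraries of 2 and 6 months and 0.311 with a robust prior. Over 104 named genes, 1287 of 1468 values kept direction and side of the threshold, 19 lost the call, 153 gained one and 9 reversed. Without the pair at L and without the pair at H, respectively, the log2 fold change was -4.24 and 3.21 for *Egr2*, -3.06 and 1.27 for *Atf3*, 3.57 and -1.39 for *Mup17*, 0.57 and -0.49 for *Gapdh*, -0.45 and 0.12 for *Cyp2u1*, -2.45 and 0.24 for *Smim22*, -1.82 and 0.14 for *Sqle*, -0.12 and 0.16 for *Pebp1*, and -0.055 and 1.63 for *Cd36*. Depth limits genes near 0 reads, such as *Ggt1*, *Slc6a19* and, outside WT at H, *Egr2*.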

Other observations

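Genes of cholesterol synthesis and uptake mostly differed in direction between the pair at H and the pair at L. Of 24 tested, 0 were higher in KO in both pairs, 2 lower and 22 split. *Sqle*, squalene epoxidase, held 70.4 CPM in WT and 20.0 CPM in KO at H, and 42.7 and 46.9 CPM at L. Its log2 fold change was -0.84, and 0 of the 24 genes had an unadjusted p under 0.05 in edgeR.

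Neutrophil markers were low and uneven. Their summed level was 26.9 CPM in WT and 13.5 CPM in KO at H, and 4.12 and 3.25 CPM at L, with 3 of 5 tested markers lower in both pairs. Of the acute-phase genes, *Saa3*, a serum amyloid gene, held 4.98 and 10.4 CPM at H and 4.81 and 6.67 CPM at L. Of 10 genes of MHC class II and antigen presentation, 7 were higher in both pairs (24.7% over all genes) and 0 lower (25.4%). None of the 10 had an unadjusted p under 0.05 in edgeR. Their sum was 4407 CPM in WT and 4149 CPM in KO at H, and 4126 and 4319 CPM at L. Of 17 chemokine genes 7 were higher and 4 lower. The chemokine sum was lower in KO, with 450 and 412 CPM at H and 478 and 424 CPM at L. *Gapdh* held 6.12 and 9.09 CPM at H and 9.55 and 6.79 CPM at L, and 27.2% of its stretches of 50 bases are shared with other genes.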
